A study of Mus musculus with 22 samples.

Results

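The genes described here are 45 genes of mitosis and the spindle, chosen by name from the machinery that carries a cell into mitosis, attaches its chromosomes to microtubules and divides it. They were drawn from 20018 mouse genes that could be named on the array through a RefSeq accession, and each gene was read by its brightest probe. Of the 45 genes 42 were expressed, that is, in some dose group at least 80% of arrays gave a lung signal more than 3 trimmed SD over the negative control spots, and 16426 of all 20018 genes met the same rule. Cdc25c, Ttk and Aurkb did not meet it. All 42 expressed genes met it in the vehicle group, and 36 of them met it in every group.

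The samples were right lungs of female C57BL/6 mice, 8 weeks old at the start, all of which were anaesthetised with Hypnorm and Dormicum, received a single intratracheal instillation and were killed 24 h later. The instillate was Mitsui7, a rigid multiwalled carbon nanotube (MWCNT), at 18 µg (n = 6), 54 µg (n = 5) or 162 µg (n = 6) per mouse, or the vehicle alone, saline with acellular lavage fluid of naive mice (n = 5). Lung RNA was labelled with Cy5 and hybridised together with Cy3-labelled RNA of 11 mouse cell lines, the universal reference, and the values below are log2 ratios, lung over reference, after loess normalization within the array. The 22 arrays lay on 7 slides, of which 2 held no vehicle mouse, and every fold change below was fitted with slide as a second term.

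Cells enter mitosis when cyclin B and cyclin A activate the kinase Cdk1. Polo-like and Aurora kinases then build the spindle, kinetochores bind its microtubules, and the checkpoint proteins hold the cell until every chromosome is attached, after which the anaphase-promoting complex destroys the cyclins and the cell is cleaved. Most of these genes are transcribed mainly from late S phase to mitosis, and the healthy adult lung is a quiescent tissue in which few cells divide. In the vehicle mice the mean log2 ratio of the 42 expressed genes was -3.26 ± 0.14 (SD, n = 5), so the lung gave far less signal than the reference of growing cell lines, whereas markers of alveolar epithelium (mean log2 ratio 5.78 ± 0.24) and endothelium (4.87 ± 0.34) stood well above it. RNA came from whole lung, in which a larger number of dividing cells and more of a transcript per dividing cell cannot be told apart.

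The promoters are shown first because the genes are described as a group and most of their promoters hold the same short elements. RefSeq windows of 300 bases, from 250 before to 50 after the annotated start (GRCm38.p6), were at hand for 36 of the 45 genes, those without being Aurkb, Ccna2, Cdc25c, Dlgap5, Foxm1, Incenp, Kif20a, Pbk and Tpx2. The cell cycle genes homology region (CHR, here the letters TTTGAA on either strand) is the element through which the DREAM and MuvB complexes act on late cell cycle genes, and the CCAAT box (CCAAT on either strand, called NF-Y box after its factor) often lies upstream of it. The following windows run from 120 bases before the start to 30 bases from it, 5′ to 3′ on the gene's strand, with every match to either element in capitals. They belong to the genes called in a comparison below for which a window was at hand, and to Nek2, the single expressed gene that was lower at 18 µg.
Cdk1 (chr10:69352883-69353032, minus strand): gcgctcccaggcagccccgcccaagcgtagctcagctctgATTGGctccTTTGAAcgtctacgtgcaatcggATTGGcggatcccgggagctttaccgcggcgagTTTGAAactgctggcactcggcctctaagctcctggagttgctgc
Cdca8 (chr4:124936888-124937037, minus strand): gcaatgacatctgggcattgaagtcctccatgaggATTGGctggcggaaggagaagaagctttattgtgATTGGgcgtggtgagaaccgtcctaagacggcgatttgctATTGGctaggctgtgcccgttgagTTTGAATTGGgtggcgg
Spc25 (chr2:69206184-69206333, minus strand): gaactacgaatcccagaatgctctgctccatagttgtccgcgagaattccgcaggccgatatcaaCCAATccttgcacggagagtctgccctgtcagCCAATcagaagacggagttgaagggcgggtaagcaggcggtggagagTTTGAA
Bub1 (chr2:127831830-127831979, minus strand): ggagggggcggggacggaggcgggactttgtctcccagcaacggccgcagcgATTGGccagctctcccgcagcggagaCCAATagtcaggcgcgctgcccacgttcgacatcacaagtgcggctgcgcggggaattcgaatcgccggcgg
Nek2 (chr1:191821353-191821502, plus strand): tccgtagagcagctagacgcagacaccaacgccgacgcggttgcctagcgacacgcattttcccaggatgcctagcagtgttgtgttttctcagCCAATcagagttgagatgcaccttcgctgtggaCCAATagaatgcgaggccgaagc
In Cdca8 the CHR and the last NF-Y box share a base. Bub1 and Nek2 held NF-Y boxes but no CHR in these windows.

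A CHR was found in the windows of 27 of the 36 genes (75%), against 20.2% of all 27025 genes with a window, and an NF-Y box in 28 (77.8%, against 41.1%). Both elements were present in 24 genes (66.7%, against 7.97%). In 24 genes a CHR began within 50 bases of the start (66.7%, against 5.72%). In 8 genes (22.2%, against 1.11%) pairs of NF-Y boxes began 31 to 33 bases apart, a spacing that was looked at after the positions had been seen; these were Aurka, Ccnb1, Ccnb2, Cdk1, Hmmr, Nek2, Spc25 and Ube2c. E2F letters (TTTGGCGC, TTTCGCGC or TTTCCCGC on either strand) were found in 1 gene, Cdk1, or 2.78% against 2.12% of all genes. For the CHR and the E2F letters the reverse held in a list of 34 DNA replication and S phase genes, of which 28 had a window. E2F letters were present in 46.4% of them and a CHR in 14.3%, but an NF-Y box in 64.3%. In 55 windows of 67 other mitosis genes a CHR was present in 58.2%, an NF-Y box in 69.1%, both elements in 41.8% and E2F letters in 14.5%. Of 13 windows of APC/C subunits, which are made throughout the cell cycle, 2 held a CHR (15.4%). The 26 expressed genes with a CHR were all higher at 18 µg, with a median log2 fold change of 0.52, and 8 of the 9 expressed genes without one were, with a median of 0.41. A match of letters is a description of these windows and does not show that a factor binds there.

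**Figure D1:**
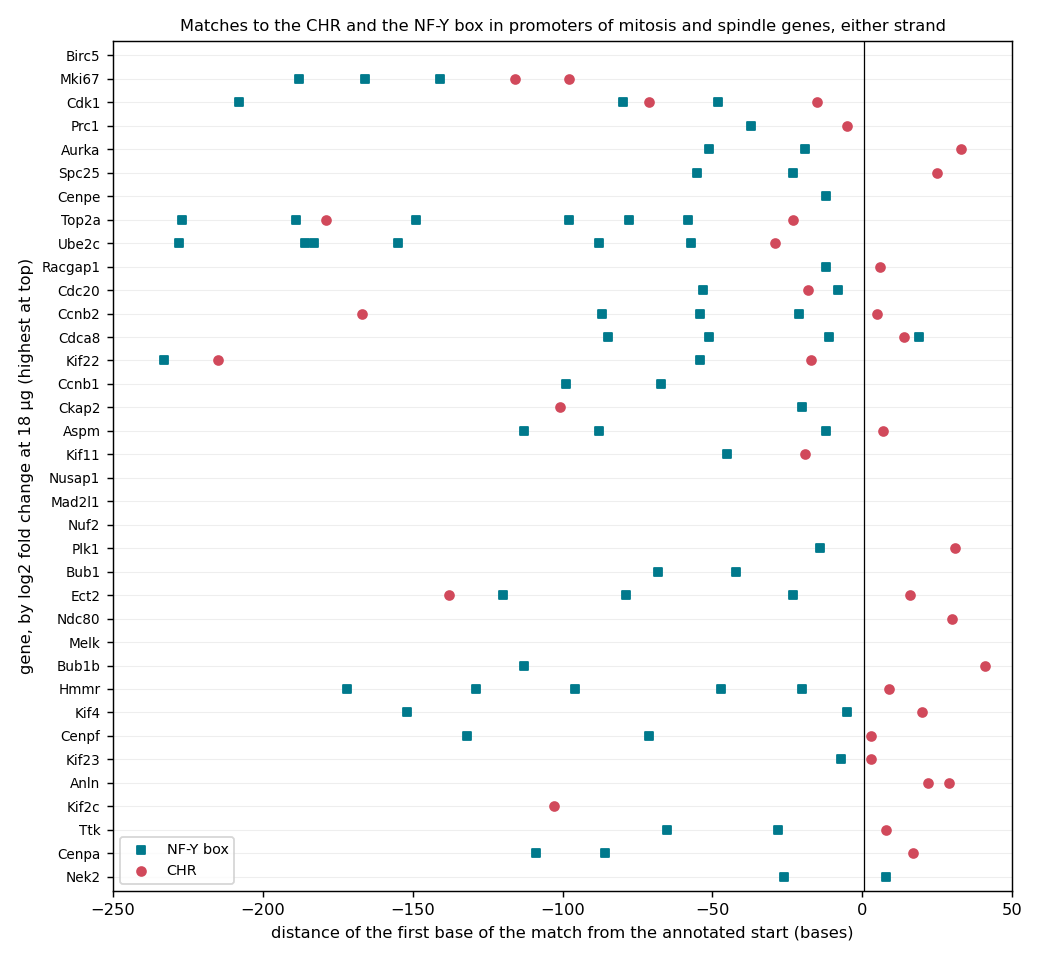
Distance from the annotated start, in bases, of each match to the CHR (circles) and the NF-Y box (squares) on either strand in the promoter windows of 36 mitosis and spindle genes, ordered from the highest log2 fold change at 18 µg (Birc5, 1.10) to the lowest (Nek2, -0.46). The CHR matches gather around the start, within 50 bases of it in 24 genes, with the NF-Y boxes mostly upstream of them.

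The mean log2 ratio of the 42 expressed genes was read in each mouse. In the vehicle mice it was -3.42, -3.30, -3.30, -3.26 and -3.03. At 18 µg it ran from -3.13 through a median of -2.64 to -2.35, and 5 of the 6 mice lay above every vehicle mouse, the exception being replicate 2. At 54 µg it was -3.54, -3.23, -3.21, -3.08 and -3.06, all below the highest vehicle mouse. At 162 µg it ran from -3.53 through a median of -3.26 to -2.39, and the highest value was that of replicate 6 alone, since the next mouse lay at -3.12. Replicate 6 at 162 µg had the lowest ratio of Cy5 signal to local background of all 22 arrays (1.18) and 24 of the 45 genes well above background, and its slide held no vehicle mouse. It is given separately where it moves a result. The low dose arrays were dimmer than the vehicle arrays, with median Cy5 signals of 1.44 and 2.00 times the local background. At 18 µg replicates 1 and 3, with means of -2.35 and -2.37, each had 42 genes well above background and replicate 2, at -3.13, had 40. Replicates 4, 5 and 6, with means of -2.66, -2.84 and -2.62, had 31, 33 and 26 and signals of 1.32, 1.35 and 1.24 times the local background. The part of array brightness in the results was not tested.

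**Figure D2:**
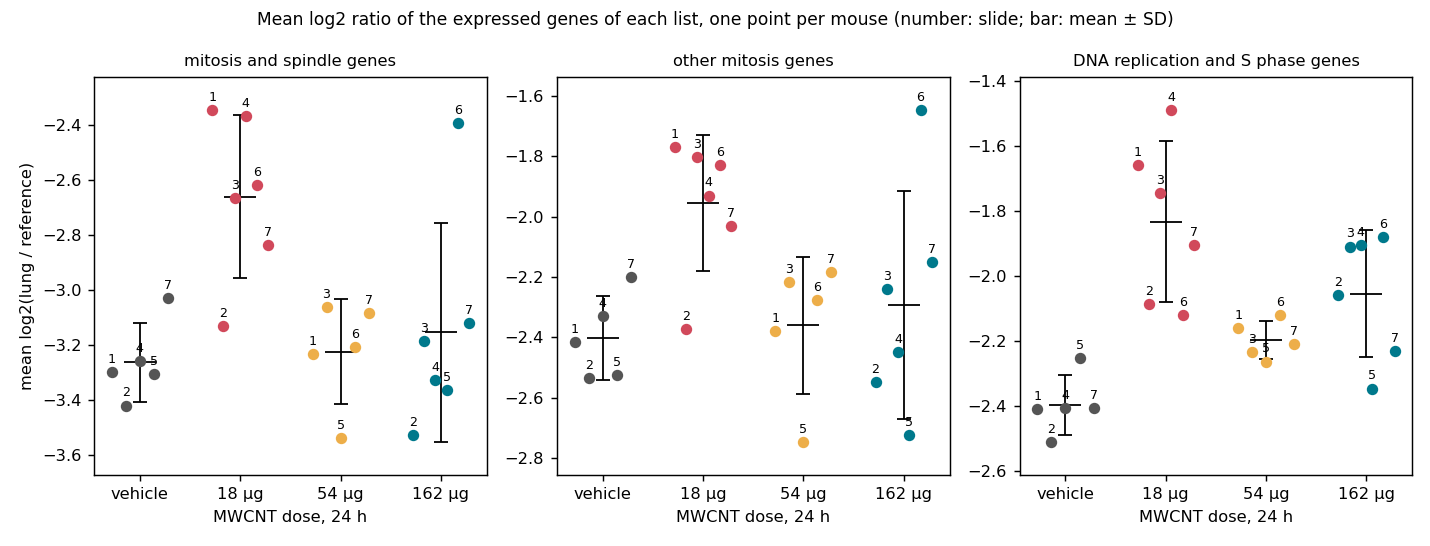
Mean log2 ratio of lung to reference per mouse (points, numbered by slide) with the mean ± SD of each dose group, for the expressed genes among the 45 mitosis and spindle genes, 67 other mitosis genes and 34 DNA replication and S phase genes. In the first panel 5 of 6 mice at 18 µg lie above all vehicle mice, and at 162 µg only the mouse on slide 6, at -2.39, does so.

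At the low dose the mitotic genes were higher as a group after loess normalization, while without any normalization their median difference was -0.01 beside -0.42 over all expressed genes. Against vehicle, 41 of the 42 expressed genes had a positive fold change at 18 µg, while 46.4% of all 16426 expressed genes did. Their median log2 fold change was 0.50 (1.41-fold), beside -0.02 over all expressed genes, and the range ran from -0.46 for Nek2 to 1.10 for Birc5. A gene was called when its adjusted p was at most 0.05 (limma, Benjamini-Hochberg over all 55681 probes) with at least a 1.5-fold change. Ccna2, Cdk1, Tpx2 and Cdca8 were called higher, 4 of 42, where 0.633% of all expressed genes were, and none was called lower (1.44%), with 1 lower at an unadjusted p below 0.05 (13.2%). Because the calls were few, the weaker limits are given too: 30 of 42 were higher at an unadjusted p below 0.05 (all expressed genes, 9.13%) and 15 at an adjusted p below 0.10 (2.24%). In 6 genes every low dose mouse lay above every vehicle mouse (Ube2c, Cdca8, Racgap1, Top2a, Mki67 and Foxm1), which held for 1.42% of all expressed genes, and in 20 genes at most 1 mouse failed to (5.13%).

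The middle and high doses gave no call. At 54 µg 13 of 42 genes were higher than in vehicle mice (47.4% of all expressed genes), the median change being -0.11 on the log2 scale with a median SE of 0.148, and the lowest adjusted p of the expressed genes was 0.511. At an unadjusted p below 0.05 (limma) none was higher (5.99%) and 2 were lower (7.91%). At 162 µg 28 of 42 were higher (48.8%), with a median of 0.06 and a median SE of 0.139, and the lowest adjusted p was 0.141, with none higher (13.5%) and 2 lower (15.4%) at an unadjusted p below 0.05 (limma). Replicate 6 moved the median at 162 µg, which was -0.01 without that mouse. With only the slides that hold a vehicle mouse it was -0.03. Of all expressed genes, 0.25% were called higher and 0.14% lower at 54 µg, and 3.34% and 3.53% at 162 µg. In no gene did every mouse of either dose lie above all vehicle mice (all expressed genes, 1.51% at 54 µg and 3.72% at 162 µg).

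**Figure D3:**
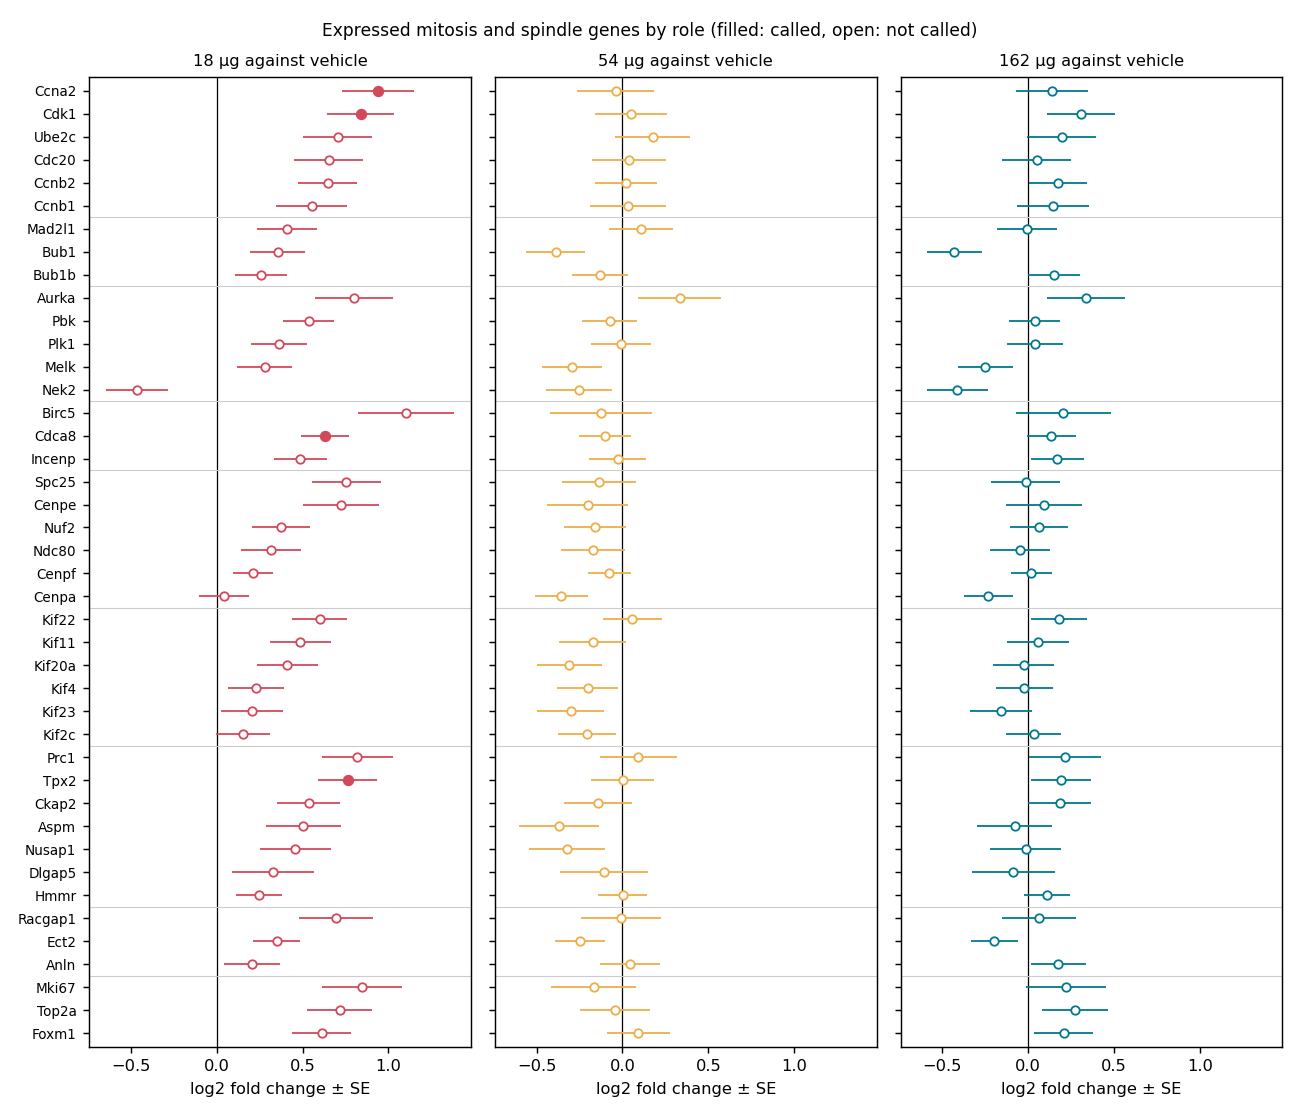
Log2 fold change ± SE against vehicle of the 42 expressed genes at each dose, grouped by role from cyclins (top) to proliferation markers (bottom), with called genes as filled points. At 18 µg every gene but Nek2 lies to the right of 0 and 4 are filled. At 54 and 162 µg the genes lie on both sides of 0 and none is filled.

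Set against the low dose directly, the high dose was lower. Of the 42 genes 41 had a negative fold change at 162 µg against 18 µg (48.7% of all expressed genes), with a median of -0.44, and 30 were lower at an unadjusted p below 0.05 (12.1% of all expressed genes). Ccna2, Bub1 and Spc25 were called lower, 3 of 42, where 1.66% of all expressed genes were, and none was called higher (3.34%). Cdca8 and Ect2 passed the adjusted p but changed by less than 1.5-fold. At 54 µg against 18 µg the median was -0.58 and 36 genes were lower at an unadjusted p below 0.05 (6.79%), but none was called and the lowest adjusted p was 0.0814; among all expressed genes this comparison called 0.0122% lower and 0.0183% higher. The comparisons against vehicle and against 18 µg share the low dose mice, so they are no separate evidence of the low dose level. Between 162 and 54 µg the median was 0.13 with no call among the members or among all expressed genes (0% in each direction), and at an unadjusted p below 0.05 no member was higher or lower (6.64% and 5.79%). Without replicate 6 at 162 µg this median was -0.01.

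The number of calls turned on single arrays. Without replicate 6 at 162 µg the fit called 17 genes higher at 18 µg against vehicle (all expressed genes, 1.12%) and 18 lower at 162 µg against 18 µg (1.66%), with medians of 0.56 and -0.60. The genes added at 18 µg included Birc5, Mki67, Aurka, Prc1, Spc25, Top2a, Racgap1, Foxm1 and Kif22. Leaving out both slides without a vehicle mouse, a setting chosen after the data had been seen, gave 17 and 16 calls (1.29% and 2.12% of all expressed genes). The 4 calls at 18 µg became 0 when any of 11 other mice was left out, namely vehicle replicate 1, 4 or 5, 18 µg replicate 1, 3, 4 or 5, 54 µg replicate 1, 2 or 4, or 162 µg replicate 1. In these 11 fits 0.0183% to 0.457% of all expressed genes were called higher. The 3 calls between 162 and 18 µg became 1, Bub1, without 18 µg replicate 3 or 162 µg replicate 1, 2, 3 or 5, where 1.09% to 1.7% of all expressed genes were called lower. The medians ran from 0.34 to 0.57 and from -0.60 to -0.35 over these fits. Centring each array on its median in place of loess moved the median of all expressed genes to -0.26 at 18 µg and that of the mitotic genes to 0.15, which leaves them 0.41 higher than all genes but calls none.

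Differences within a slide need no fitted slide term, though they use the same loess-normalized values. On the 4 slides that held both a vehicle and a low dose mouse, the mean of the mitotic genes was higher in the low dose mouse by 0.95, 0.89, 0.29 and 0.19. On the 4 slides with a vehicle and a high dose mouse the differences ran from -0.11 to -0.06. On 5 slides a high dose mouse could be set against a low dose mouse: the difference was -0.96 to -0.29 on 4 of them and 0.22 on slide 6, which held replicate 6. The low and high dose mice thus differed on slides 2, 3, 4 and 7 in the direction of the fit, and on slide 6 in the opposite one. Because the fit has slide as a term, it rests largely on these same differences, and they are no separate check of it.

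**Figure D4:**
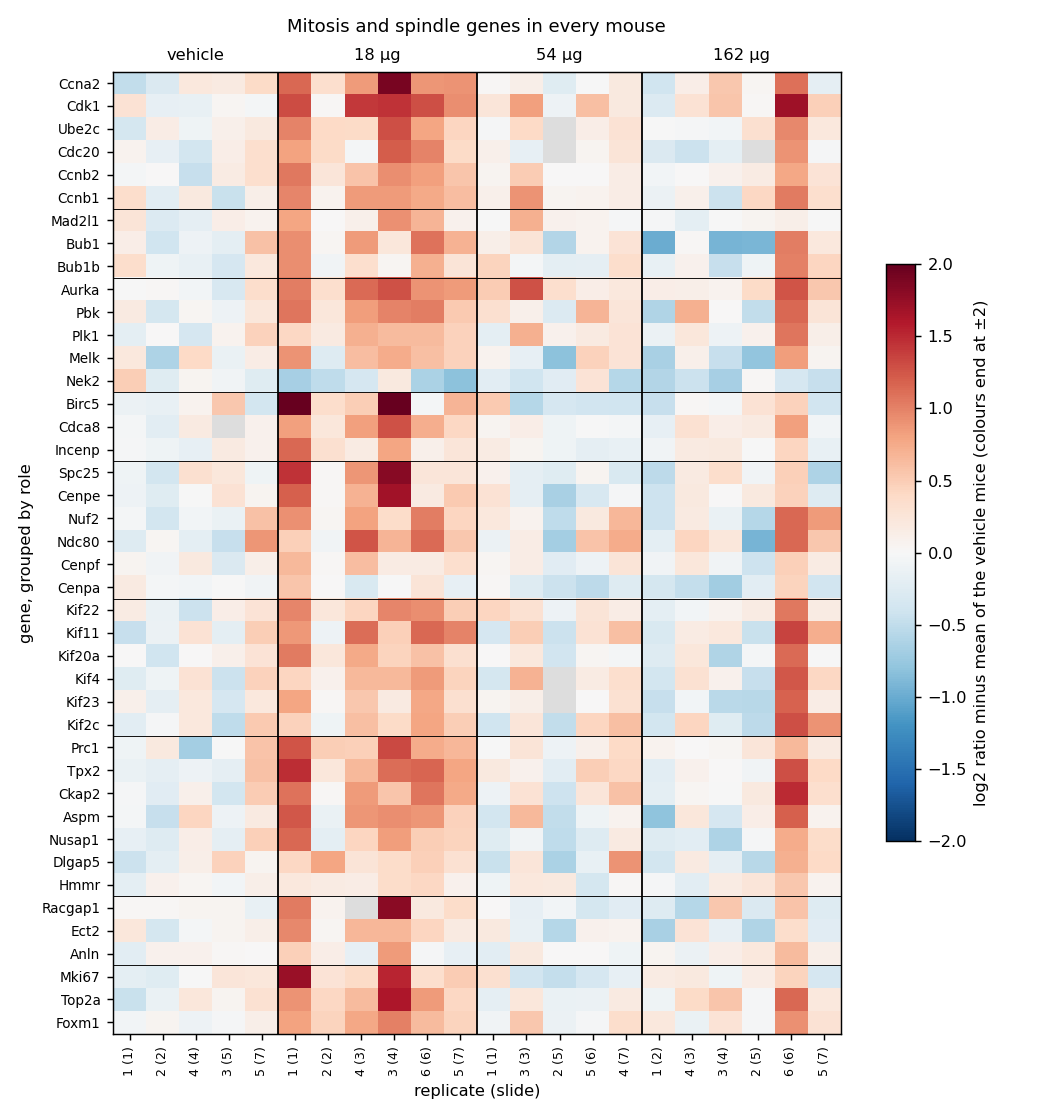
Log2 ratio of each expressed gene in each mouse minus the mean of the vehicle mice, with genes in rows by role, mice in columns by dose (replicate, slide in brackets) and missing spots in grey. Red columns are the low dose mice other than replicate 2 and, at 162 µg, replicate 6 on slide 6; Nek2 runs against the other rows at 18 µg.

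Cyclins and their kinase led the calls. Ccna2 encodes cyclin A2, which serves both S phase and entry into mitosis. Its log2 ratios were -4.21, -4.00, -3.54, -3.50 and -3.33 in the vehicle mice and ran from -3.39 through -2.84 to -1.82 at 18 µg. They were -3.97, -3.72, -3.70, -3.60 and -3.53 at 54 µg and ran from -4.11 through -3.64 to -2.62 at 162 µg. All 6 low dose mice lay above all middle dose mice, and 5 of them lay above all vehicle mice. Ccna2 rose by 0.94 ± 0.21 (SE) on the log2 scale at 18 µg, or 1.92-fold (adjusted p = 0.0371), and fell by 0.80 ± 0.20 from 18 to 162 µg (adjusted p = 0.0261). Cdk1, the kinase that the cyclins activate, gave -4.15, -4.14, -4.03, -3.96 and -3.70 in the vehicle mice. At 18 µg it ran from -3.97 through -2.70 to -2.55, and the low value was again replicate 2. Cdk1 rose by 0.84 ± 0.20, or 1.79-fold (adjusted p = 0.0456), by its brightest probe, but by 0.28 (adjusted p = 0.252) by its other expressed probe. Its window above holds a CHR that begins at position -15. Ccnb1, cyclin B1, was 0.55 ± 0.21 higher at 18 µg without passing (adjusted p = 0.198). All 7 genes of this group, with Ccnb2, Cdc20, Ube2c and the unexpressed Cdc25c, were higher at 18 µg, with a median of 0.65 over the 7 and 2 calls, and all 7 were lower at 162 than at 18 µg.

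In the spindle assembly checkpoint Bub1 was called between doses. The 3 expressed genes of this group differed by -0.79 to -0.11 from 18 to 162 µg. Bub1 is a kinase that marks the inner centromere and recruits the checkpoint proteins. Its log2 ratios in the vehicle mice were -4.17, -3.97, -3.88, -3.64 and -3.19. They ran from -3.73 through -2.99 to -2.68 at 18 µg and from -4.75 through -4.21 to -2.75 at 162 µg. At 162 µg 4 of the 6 mice lay below all low dose mice, and the highest was replicate 6. Bub1 fell by 0.79 ± 0.15 from 18 to 162 µg (adjusted p = 0.0060), a call that held in each of the 22 fits that left out a mouse. It was not called against vehicle at 18 µg (0.36 ± 0.16, adjusted p = 0.295) or at 162 µg (-0.43 ± 0.16, adjusted p = 0.141). Its spot was well above background on only 4 low dose and 3 high dose arrays. Mad2l1, which inhibits the anaphase-promoting complex, was 0.41 ± 0.17 higher at 18 µg (adjusted p = 0.260), and Bub1b, its partner in that inhibition, 0.26 ± 0.15 (adjusted p = 0.462). From 18 to 162 µg Bub1b differed by -0.11 ± 0.14 (SE) and Mad2l1 by -0.42 ± 0.16 (adjusted p = 0.188), and neither was called. Ttk was not well above background on any array, so no level is given.

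Among the mitotic kinases Aurka and Nek2 lay at opposite ends. Aurka, which matures the centrosomes, ran from -4.36 through -4.06 to -3.70 in the vehicle mice and from -3.72 through -3.09 to -2.77 at 18 µg, where 5 of 6 mice lay above all vehicle mice. Its difference of 0.80 ± 0.23 missed the threshold (adjusted p = 0.0841). Nek2, which separates the centrosomes before mitosis, gave -2.15, -2.14, -1.98, -1.86 and -1.41 in the vehicle mice and ran from -2.73 through -2.48 to -1.71 at 18 µg. It was 0.46 ± 0.18 lower at 18 µg (adjusted p = 0.213) and 0.41 ± 0.18 lower at 162 µg (adjusted p = 0.229), neither of which passed, and no dosed mouse exceeded the highest vehicle mouse. Without that mouse, vehicle replicate 1, the log2 difference at 18 µg was -0.31. Plk1, which drives mitotic entry, was 0.36 ± 0.16 higher at 18 µg (adjusted p = 0.295).

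In the chromosomal passenger complex, the Aurora B assembly that corrects wrong attachments, Cdca8 (borealin) was called. Birc5 (survivin) had the largest value by its brightest probe. Cdca8 gave -3.44, -3.28, -3.15 and -3.05 in the 4 vehicle mice with a usable spot, 1 spot having been marked as an outlier by the scanner software. At 18 µg it ran from -3.00 through -2.46 to -1.96, so the groups did not overlap, and at 54 µg it lay between -3.31 and -3.10. Cdca8 rose by 0.63 ± 0.14, or 1.55-fold (adjusted p = 0.0395), while its other probe gave 0.33 (adjusted p = 0.428). Birc5 gave -4.73, -4.50, -4.48, -4.29 and -3.82 in the vehicle mice and ran from -4.41 through -3.78 to -2.20 at 18 µg, with the highest values, -2.20 and -2.34, in replicates 1 and 3. Its log2 fold change was 1.10 ± 0.28 (adjusted p = 0.0564), but the other probes of Birc5 gave 0.62 and 0.40 and the mean over its probes 0.72. Incenp, the scaffold, was 0.49 ± 0.15 higher without passing (adjusted p = 0.122). Aurkb itself was not well above background on any array.

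At the kinetochore, the plate on which microtubules end, Spc25 of the Ndc80 complex was the gene that passed. Its vehicle values were -4.06, -3.78, -3.78, -3.46 and -3.37. At 18 µg it ran from -3.67 through -3.12 to -1.86 and at 162 µg from -4.31 through -3.64 to -3.21. The low dose group held 3 mice above all vehicle mice and 3 within their range. Spc25 fell by 0.77 ± 0.19 from 18 to 162 µg (adjusted p = 0.0264), and its difference of 0.75 ± 0.20 from vehicle at 18 µg did not pass (adjusted p = 0.0692). Ndc80, which gives the complex its name, differed by 0.32 ± 0.17 (adjusted p = 0.420). All 6 genes of the group were higher at 18 µg, from 0.04 for Cenpa, the centromeric histone, to 0.75 for Spc25, and at 54 µg the values other than that of Cenpf ran from -0.36 to -0.14, with no call. Cenpf met the negative control rule on 4 of the 5 vehicle arrays, but the scanner software marked it as well above background on 2 low dose arrays and on no other, so its values rest on dim spots.

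The kinesins, motors that slide and shorten spindle microtubules, gave no call. All 6 were higher at 18 µg, from 0.15 for Kif2c to 0.60 ± 0.16 for Kif22, which carries chromosome arms (adjusted p = 0.0693). Kif11, which pushes the poles apart, was 0.49 ± 0.18 higher (adjusted p = 0.186), and its spot was well above background on only 2 low dose and 2 vehicle arrays. Among the 7 spindle microtubule factors Tpx2, which activates Aurora A and nucleates microtubules, was called. Tpx2 gave -4.32, -4.31, -4.26, -4.24 and -3.56 in the vehicle mice, where the highest value stood apart, and ran from -3.92 through -3.18 to -2.66 at 18 µg. It rose by 0.76 ± 0.17, or 1.70-fold (adjusted p = 0.0387). Prc1, which bundles the microtubules of the central spindle, was 0.82 ± 0.21 higher (adjusted p = 0.0586). All 7 factors were higher at 18 µg, with a median of 0.50.

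The 3 genes of cytokinesis differed in size. Racgap1, part of the centralspindlin complex that positions the furrow, was 0.69 ± 0.22 higher at 18 µg (adjusted p = 0.120), and its 5 usable low dose values, from -3.87 to -2.14, all lay above the vehicle range of -4.09 to -3.88. Anln, an actin-binding scaffold of the furrow, was 0.20 ± 0.16 higher (adjusted p = 0.618), with 3 of 6 low dose mice above all vehicle mice. Mki67, the coat of mitotic chromosomes and the common marker of proliferation, gave -4.21, -4.16, -3.97, -3.73 and -3.72 in the vehicle mice and ran from -3.68 through -3.51 to -2.24 at 18 µg. The groups did not overlap, yet the difference of 0.85 ± 0.23 did not pass (adjusted p = 0.0752), the highest mice being replicates 1 and 3, at -2.24 and -2.44. Top2a, which untangles sister chromatids, was 0.72 ± 0.19 higher (adjusted p = 0.0693). Foxm1, the transcription factor that raises many of these genes in G2, was 0.61 ± 0.17 higher (adjusted p = 0.0811), its low dose values of -2.41 to -1.84 all lying above the vehicle values of -2.96 to -2.73.

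**Figure D5:**
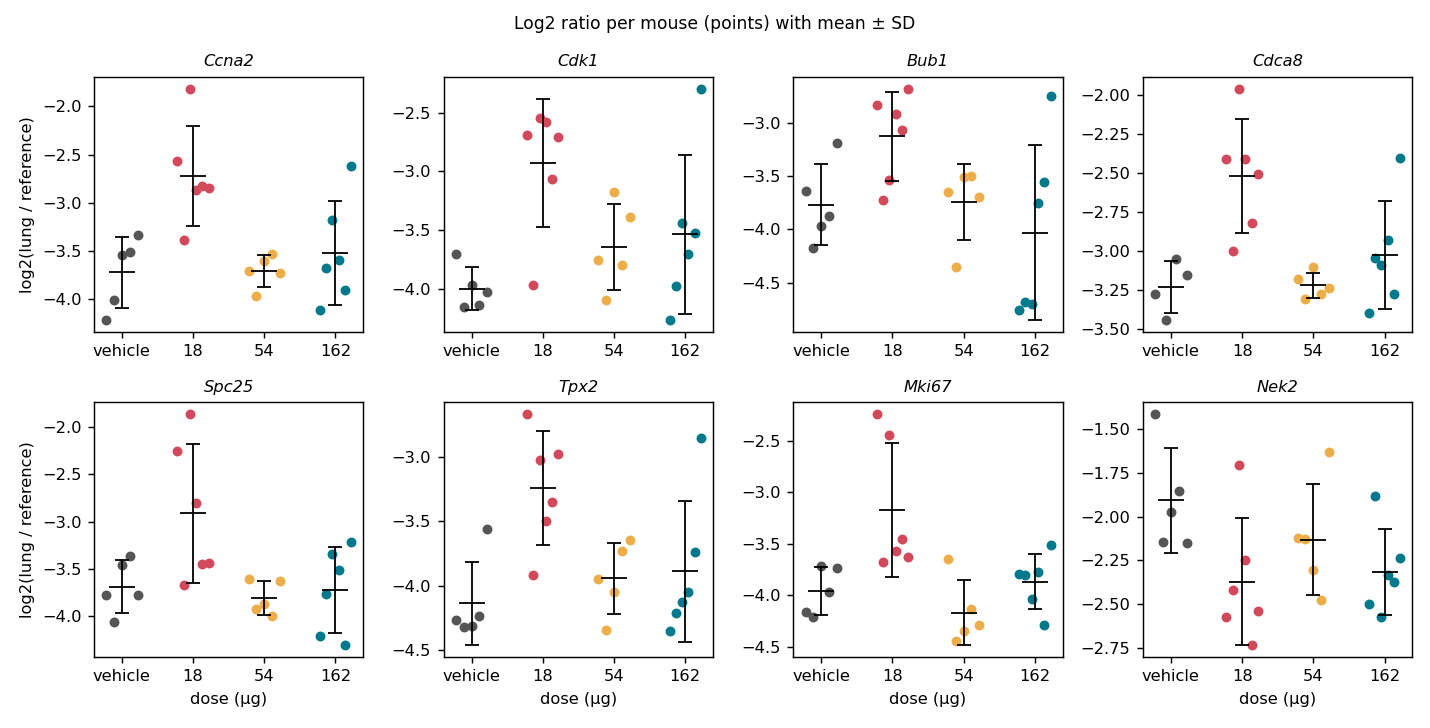
Log2 ratio of lung to reference in each mouse (points) with the mean ± SD of each dose group, for the 6 genes called in a comparison and for Mki67 and Nek2. The low dose mice exceed the vehicle mice in most panels, Cdca8 and Mki67 without overlap, and the highest point at 162 µg in every panel but that of Nek2 is replicate 6.

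Further probes of the same genes were read as a check of the brightest. There were 14 genes with more than 1 probe. Of the 63 probes in all 56 were expressed, and 55 of these were higher at 18 µg, among them all 14 expressed probes that were not the brightest of their gene. The size of the change was mostly smaller in these 14. Of the called genes, Cdk1 gave 0.28 (brightest 0.84), Cdca8 0.33 (brightest 0.63) and Tpx2 0.52 (brightest 0.76). Birc5 gave 0.62 and 0.40 (brightest 1.10) and Foxm1 0.21 (brightest 0.61), while only in Racgap1 was the change larger, 0.81 (brightest 0.69). Averaging all probes of a gene left Ccna2 and Tpx2 called and added Birc5 and Racgap1, while Cdk1 (0.38, adjusted p = 0.0831) and Cdca8 (0.51, adjusted p = 0.0926) fell below the threshold. With this averaging 0.737% of all expressed genes were called higher at 18 µg.

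Other genes of the pathway gave the same direction at 18 µg. Of 67 other mitosis genes, which cover condensin, further kinetochore proteins, kinesins and regulators, 62 were expressed, 53 of them were higher at 18 µg with a median of 0.28, and 7 were called, beside 0.633% of all expressed genes, of which Cdca5 (sororin, 0.94), Cks1b (0.90), Shcbp1 (0.80), Ccnf (0.80) and Cenpk (0.67) changed most. None was called at 54 or 162 µg against vehicle, and Cdca5 was called lower at 162 than at 18 µg (-0.66), where 1.66% of all expressed genes were. The 14 subunits of the APC/C, the ligase whose activator is Cdc20, gave 5 higher at 18 µg, a median of -0.04 and no call. The 10 genes of the DREAM and MuvB complexes gave 8 higher, a median of 0.13 and no call.

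DNA replication and S phase genes were higher at the low dose as well, and some were also called at the high dose. Of 32 expressed genes 29 were higher at 18 µg with a median of 0.51, and 10 were called (all expressed genes, 0.633%), led by Uhrf1 (1.52), Rrm2 (1.21), Mcm2 (0.96) and Mcm6 (0.90). At 54 µg 28 were higher with a median of 0.21 and no call. At 162 µg 29 were higher with a median of 0.36 and Gins1 (0.86), Chaf1b (0.61), Rfc4 (0.61) and Fen1 (0.59) were called (all expressed genes, 3.34%), at a dose where the mitotic genes had a median of 0.06 and no call. The mean log2 ratio of the S phase genes lay between -2.51 and -2.25 in the vehicle mice and between -2.35 and -1.88 at 162 µg, where 5 of 6 mice exceeded all vehicle mice, while for the mitotic genes 1 of 6 did. The difference between the lists was not tested.

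Cell type markers are given beside the mitotic genes as measured. Of the 5 B cell markers all were higher at 18 µg, with a median of 0.34 and no call, and all were lower at 162 µg than at 18 µg, with a median of -1.02. The mean of the B cell markers lay between 0.76 and 1.53 in the vehicle mice, 0.72 and 1.68 at 18 µg, -0.34 and 1.18 at 54 µg, and -0.14 and 0.79 at 162 µg. The 4 expressed eosinophil markers were all higher at 18 µg, with a median of 0.35 and no call. At 162 µg 2 of them were higher, with a median of 0.01 and a call for Ear6 (all expressed genes, 3.34%). From 18 to 162 µg the median of the eosinophil markers was -0.35, with no call. All 7 ciliated cell markers were lower at every dose, with medians of -0.83, -0.52 and -0.91, and 4 were called lower at 162 µg, where 3.53% of all expressed genes were (Rsph1, Dnaic1, Tppp3 and Ccdc39). Tppp3 was also called lower at 162 than at 18 µg (all expressed genes, 1.66%). The lists of precursor cells of marrow, blood and thymus gave no call at 18 µg: 3 of 7 neutrophil precursor markers, none of 4 expressed erythroid precursor markers and 1 of 2 expressed thymocyte markers were higher, with medians of -0.03, -0.30 and -0.05. Of 4 markers of monocytes and recruited macrophages 2 were higher at 18 µg, with a median of 0.22 and a call for Arg1 (2.06). Of 6 alveolar macrophage markers 3 were higher, with a median of 0.28 and a call for Chil3 (1.73). At this dose 0.633% of all expressed genes were called higher. The 8 alveolar epithelial and 5 endothelial markers were all higher at 18 µg by medians of 0.24 and 0.22, with no call. At the same dose 3 of 6 neutrophil, 2 of 5 T cell and none of 2 club cell markers were higher. Their medians were 0.09, -0.03 and -0.35, with no call. The part of any of these cells in the mitotic genes was not tested.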

How the data were processed

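Lung RNA and universal reference RNA were hybridised to 2-colour Agilent arrays. The authors deposited scanner output of Feature Extraction 10.7.3.1, whose red and green median intensity per spot was used without background subtraction, as in the study's methods, and a table of log2 ratios of lung to reference whose normalization is not given in the sources used here, used as an alternative. Spots marked as outliers were left out, control spots had weight 0, and each array was normalized by loess (span 0.3); spots of a probe were summarised by their median. limma 3.58.1 (R 4.3.3) fitted dose and slide to all 55681 probes over 22 arrays (12 residual degrees of freedom), with Benjamini-Hochberg adjustment. Of the probes, 26413 were named through RefSeq. Expression was judged against 308 negative control spots. The labels give separate mice as replicates. The number of arrays limits the precision. The fit was tested on simulated data. Promoters were searched with Python 3.11.15 and pandas 2.3.3.

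The members and the lists were chosen with earlier results of these data known. Genes were named in the text when called in a comparison, when largest of their role at 18 µg, when at an end of a dose, or when a customary anchor of their role; other members were named after their values were seen, as ends of ranges or exceptions. Of the other lists, at most 5 called genes per list and dose were named, by size of change. Alternatives to the background correction, normalization, channel, filter, probe rule, slide term, samples and adjustment were run, and each mouse was left out in turn. Calls of single B cell markers are not reported here.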

Additional observations from a re-analysis of the deposited data

Results flagged for a closer look

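In 96 groups of 4 to 6 mice, formed by the named genes and the member mean at each dose, Dixon's ratio (the gap of an end value to its neighbour over the group's range) passed its 95% value in 13. Chance gives about 1 in 20 for independent groups. These groups share mice, and the member mean is built from the members, so the count cannot be set against that share. Replicate 6 at 162 µg accounted for 4 of the 13. It was highest in the member mean (-2.39, next -3.12, ratio 0.6422), Plk1 (-1.45, next -2.28, ratio 0.7004), Kif22 (-2.02, next -2.90, ratio 0.7063) and Prc1 (-2.26, next -2.66, ratio 0.6395).

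Among the vehicle mice, Tpx2 was highest in replicate 5 (-3.56, next -4.24, ratio 0.8929). Racgap1 was lowest in replicate 5 (-4.09, next -3.92, ratio 0.8015), Anln was lowest in replicate 1 (-3.41, next -3.20, ratio 0.7357) and Aurkb, which was not above background, was lowest in replicate 4 (-0.59, next -0.11, ratio 0.7144). At 18 µg, Cdk1 was lowest in replicate 2 (-3.97, next -3.07, ratio 0.6359). At 54 µg, Ccnb1 (-3.41, next -4.16, ratio 0.895) and Mad2l1 (-2.48, next -3.11, ratio 0.8562) were highest in replicate 3. Also at 54 µg, Birc5 was highest in replicate 1 (-3.83, next -4.69, ratio 0.7789) and Bub1 was lowest in replicate 2 (-4.36, next -3.70, ratio 0.7744).

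The effects of 18 and 162 µg against the same vehicle mice differed by the test of that difference, with at least a 1.5-fold change, in 3 genes; Cdca8 and Ect2 passed the adjusted p alone. The log2 difference between 162 and 18 µg was -0.80 ± 0.20 (SE) in Ccna2, -0.79 ± 0.15 in Bub1 and -0.77 ± 0.19 in Spc25, with adjusted p of 0.0261, 0.0060 and 0.0264 (limma).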

How the results depend on the processing

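The median log2 fold change at 18 µg against vehicle stayed between 0.44 and 0.67 under normexp, Cy5 alone, the deposited table and kept outlier spots. It stayed in the same range under other probe rules and other slide terms or samples. Quantile normalization of average intensities and other filters returned exactly the median of the reported fit, 0.50. The former leaves the log2 ratios as they are, and under the latter the median was taken over the same genes. Neither therefore tests how stable this median is. Median centring gave 0.15 and no normalization -0.011, where the median of all genes moved to -0.26 and -0.42, so relative to all genes the members stood at 0.41 in both. For 54 against 18 µg these settings gave -0.26 and 0.056 (all genes 0.24 and 0.56), and no normalization gave -0.28 for 162 against 54 µg (all genes -0.34). The medians at 54 and 162 µg against vehicle changed sign under several settings without a call. The calls at 18 µg, 4 by the reported fit, became 0 with median centring, no normalization, Cy5 alone, the deposited table or the 2 groups alone (0% to 0.457% of all expressed genes called higher, 0.633% by the reported fit), 10 with adjustment over expressed probes (0.944%), 11 with slide as a random block (0.98%) and 17 on slides that hold a vehicle mouse (1.29%). Without a slide term 3 were called (0.426%), but these were Aurka, Prc1 and Foxm1, and the 4 reported genes had adjusted p from 0.0570 to 0.0742. Those at 162 against 18 µg were 3 by the reported fit, which called 1.66% of all expressed genes lower. They became 0 with median centring (0.0548%), no normalization (0%) or no slide term (1.31%), and 1 with Cy5 alone (1.41%) or the 2 groups alone (1.69%). With a random block (1.73%) or without the fold limit (3.04%) they were 5, and on slides that hold a vehicle mouse 16 (2.12%). In the deposited table Ccna2 (-0.70, adjusted p = 0.110) and Spc25 (-0.74, adjusted p = 0.149) lost their calls (limma). There 1.21% of all expressed genes were called lower. With the 2 groups alone 1 gene, Bub1, was called at 162 µg against vehicle (-0.62), where 3.67% of all expressed genes were called lower. Cdca8 at 18 µg turned to -0.010 without normalization. Cdk1 at 18 µg lost its call under normexp (0.80, adjusted p = 0.0602, limma), where 0.517% of all expressed genes were called higher. The cause of these changes was not tested.

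With the replicate number as a block in place of slide, 9 members were called at 18 µg (1.27% of all expressed genes higher) and 6 at 162 against 18 µg (1.85% lower), where Spc25 lost its call (adjusted p = 0.0540). Same-numbered mice correlated between -0.17 and 0.63 (31 pairs, of which 11 shared a slide and 20 were over 0.1). On different slides the median correlation was 0.10 for same-numbered pairs and -0.08 for differently numbered pairs (137 pairs). On a shared slide the medians were 0.27 and 0.25 (13 differently numbered pairs). The labels name no pairing, so the reported fit did not use the numbers. Whether a number marks mice handled together was not tested.

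Leaving out each mouse gave 0 to 17 calls at 18 µg (medians 0.34 to 0.57), 1 to 18 at 162 against 18 µg (-0.60 to -0.35) and 0 to 3 at 54 against 18 µg (-0.69 to -0.51). Over these fits 0.0183% to 1.17% of all expressed genes were called higher at 18 µg. At 162 against 18 µg 1.09% to 2.12% were called lower, and at 54 against 18 µg 0% to 0.0974%. Leaving out a mouse gave 0 calls for each other comparison, with medians from -0.19 to -0.04 at 54 µg, from -0.01 to 0.16 at 162 µg and from -0.01 to 0.24 between them. All the highest counts came without replicate 6 at 162 µg. No called difference of a named member changed sign with a mouse left out. Scan dates coincided with slides, so the date as a block was not run apart. Aurkb and Ttk were not well above background on any array, so a change in them was not detectable.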
